A study of Homo sapiens with 4 samples.

Results

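The replication-dependent histone genes were examined in a map of RNA bound by ADAR, the enzyme that converts adenosine to inosine in double-stranded RNA, in K562, a human leukaemia cell line. The members were the protein-coding genes of the RefSeq GRCh38.p14 annotation with the symbols H1-1 to H1-6 or with H2AC, H2BC, H3C or H4C followed by a number. There were 69 of them among 20056 protein-coding genes. They comprised 6 H1, 17 H2A, 18 H2B, 13 H3 and 15 H4 genes, of which 55 lay on chromosome 6, 13 on chromosome 1 and 1 on chromosome 12. Enhanced crosslinking and immunoprecipitation (eCLIP) had been made from untreated cells, as 2 libraries of RNA pulled down through an ADAR1 antibody (IP) and 2 of RNA that was not pulled down (input), each pair numbered 1 and 2. All were crosslinked with ultraviolet light of 254 nm at 400 mJ/cm2, and RNA was recovered from a membrane region of 75 kDa above the size of the protein. Nothing in the labels ties the 2 replicates to separate cultures, and the spread between them may be technical.

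Replication-dependent histone genes supply the bulk of histone protein when DNA is copied. Their messenger RNAs usually lack introns and a poly(A) tail. The 3′ end is formed by cleavage just after a conserved stem-loop, which is bound by SLBP, at a site recognised by the U7 small nuclear RNA. Their transcription is coordinated by NPAT in histone locus bodies. H2A, H2B, H3 and H4 form the nucleosome core, and H1 is the linker histone.

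The unit of measurement was the cluster, a stretch of RNA called by the authors from IP reads, with a log2 fold of IP over input and a −log10 p-value, both the authors' own. A cluster was given to a gene when its midpoint lay in the gene span, and was called enriched when both values were at least 3. The 61 compact members had spans of 386 to 797 bases, as for intronless genes. The other 8 (H2BC4, H2BC5, H2BC12, H2BC18, H2BC21, H3C4, H3C6 and H4C15) had spans above 1 kb. Exons were not assigned here, so a cluster in these long spans is not shown to lie in the histone message. Strands were available for 64 members, from the RefSeq promoter table.

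Replicate 1 held 149 clusters in 49 of the 69 members and replicate 2 held 52 in 28. Every member with a cluster in replicate 2 also had one in replicate 1, and 20 had none in either. The 20 were spread over the families, with 1 H1, 4 H2A, 4 H2B, 6 H3 and 5 H4 genes. Among them were H2AC18, H2AC19, H3C14 and H4C14 of the chromosome 1 group. Several histone genes are near-identical copies, and the handling of reads that match more than 1 copy was not given in the sources used here. A member without a cluster is therefore not shown to lack bound RNA. Clusters followed the strand of the gene. In compact members of known strand, 79 clusters of replicate 1 were sense and 1, in H2AC21, was antisense. In replicate 2, 28 were sense and 0 antisense. In the long spans, 63 were sense and 9 antisense in replicate 1, and 22 and 2 in replicate 2.

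The depth of each library is not stated. From the steps of the authors' folds, IP depth relative to input was 3.33 in replicate 1 and 0.553 in replicate 2. The whole numbers of reads behind a cluster could be recovered where its p was above 0 and a single pair of reads gave both its fold and its p. This held for 77 of 83 such clusters in replicate 1 and 30 of 31 in replicate 2. They had medians of 47 IP reads and 5 input reads in replicate 1 and of 8 and 6 in replicate 2. Intervals given below are exact (Clopper-Pearson) 95% intervals of the IP share of those reads, written as log2 folds. They cover counting error only. Marker genes of K562 were present, with clusters in 14 of 14 erythroid genes in replicate 1 and 13 in replicate 2. Of 12 hepatocyte genes, 1 had a single cluster in replicate 1 and 0 had any in replicate 2.

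The members also share control sequences in their promoters, and these divide along family lines. In the windows from 250 bases before to 50 bases after the start, available for 64 members, CCAAT was found on either strand in all windows of H1 (6), H2A (16), H2B (18) and H3 (11) genes but in 3 of 13 for H4. Of all 35116 RefSeq windows, 34.6% held it. The octamer ATTTGCAT, a site of the OCT1 factor, was in 14 of 18 H2B and 11 of 16 H2A windows, in 1 of 11 for H3 and in 0 for H1 and H4, against 1.77% of all windows. Neighbouring H2A and H2B genes often start back to back and share window sequence. The windows of H3C4 and H2AC7 are identical (300 of 300 bases), as their annotated starts coincide, so this window counts for both H3 and H2A. The counts by family are therefore not independent. GGTCC, part of the H4-specific site II, was in 12 of 13 H4 windows and in 1 H1, 1 H2A, 4 H2B and 3 H3 windows, but this short motif was in 46.3% of all windows. AAACACA, the H1 box, was in 6 of 6 H1 windows, 1 of 16 for H2A and 2 of 11 for H3, against 5.64% of all. TATAAA was in 42 of 64 windows against 11.5% of all, and GCGGGA, the core of an E2F site, in 11 of 13 H4, 3 of 11 H3 and 1 of 18 H2B windows, against 26.9%.

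The promoters of 4 members show these layouts, with the motifs above in capitals on whichever strand they occur. H2AC21 is the compact gene with a reproducible peak, H4C11 and H2BC14 are the compact H4 and H2B genes with an enriched cluster, and H1-2 is the H1 gene with the most clusters over both replicates. Each is the stretch of 150 bases before the start, 5′ to 3′ on the gene's strand, from RefSeq on GRCh38.p14: chr6:27823942-27824091 on the plus strand, chr1:149887966-149888115 on the minus strand, chr6:27814872-27815021 on the plus strand and chr6:26056471-26056620 on the minus strand.
H4C11: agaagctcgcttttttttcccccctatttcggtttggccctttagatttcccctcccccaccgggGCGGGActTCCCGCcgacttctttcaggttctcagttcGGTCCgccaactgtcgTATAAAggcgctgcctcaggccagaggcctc
H2AC21: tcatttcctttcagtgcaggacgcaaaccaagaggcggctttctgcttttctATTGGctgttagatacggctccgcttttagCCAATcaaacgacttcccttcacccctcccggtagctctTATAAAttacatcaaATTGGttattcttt
H2BC14: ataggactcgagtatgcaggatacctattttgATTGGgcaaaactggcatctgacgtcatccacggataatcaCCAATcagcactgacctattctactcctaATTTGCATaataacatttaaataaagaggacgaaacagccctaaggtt
H1-2: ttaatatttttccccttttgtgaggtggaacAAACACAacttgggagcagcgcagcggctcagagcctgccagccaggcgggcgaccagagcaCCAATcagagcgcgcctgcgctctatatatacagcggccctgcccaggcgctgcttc
H4C11 carries GCGGGA on both strands and GGTCC before a TATAAA. H2AC21 has 3 CCAAT matches and H2BC14 has 2 with an octamer, while H1-2 has 1 CCAAT and the H1 box. A match is a match of letters only, and the eCLIP values bear on RNA, not on promoter activity.

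Enriched clusters were found in few of these genes, and the share stood differently against the background in the 2 replicates. In replicate 1, 5 of the 49 members with a cluster had an enriched one: H4C15, H4C11, H2AC21, H2BC14 and H2AC20. This is 10.2%, and 15.7% of all protein-coding genes with a cluster in replicate 1 had an enriched one. In replicate 2 it was 2 of 28, H4C15 and H2AC21, against 43.2% of protein-coding genes. By cluster, 11 of 149 (7.38%) were enriched in replicate 1, where 1.39% of all clusters were, and 2 of 52 (3.85%) in replicate 2, where 12.8% were. Longer spans hold more clusters. Among protein-coding genes of at most 1 kb, compact members included, 5.43% (5 of 92) had one in replicate 1 and 9.09% (3 of 33) in replicate 2. Of the compact members with a cluster, 4 of 42 (9.52%) and 1 of 22 (4.55%) had an enriched one, against 1 of 50 (2%) and 2 of 11 (18.2%) of the other compact coding genes. By cluster and by compact gene, the histone share was thus above that of the rest in replicate 1 and below it in replicate 2, on small counts. H4C15 and H2AC21 were enriched in both replicates, 2 of the 28 members with a cluster in both, against 16.2% of protein-coding genes. The same 2, of the 49 members with a cluster, held all 5 reproducible peaks, the authors' list that combines the replicates, and 3.74% of protein-coding genes with a cluster held any. No p-value was computed for these counts, since each replicate gives 1 value per cluster and neighbouring clusters are not independent.

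H2AC21, an H2A gene on the minus strand of chromosome 1 (149887469 to 149887965), was the compact member with a reproducible peak. That peak lay at chr1:149887555-149887623, 120 bases from the gene's 3′ end by its midpoint, with a log2 fold of 3.76 and a −log10 p of 5.67. In replicate 1 the overlapping cluster (149887551 to 149887622) had 70 IP reads over 2 input reads, a log2 fold of 3.40 (interval 1.49 to 6.47). In replicate 2 the cluster had 86 IP reads over 9 input reads, a log2 fold of 4.11 (interval 3.12 to 5.29). The intervals overlapped, and both lay above 0. In replicate 1, adjoining sense clusters reached 3.42 (71 over 2 reads) and 2.83 (71 over 3 reads).

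The neighbouring gene H2AC20 (149886918 to 149887411, plus strand) faces H2AC21 tail to tail, with 57 bases between their 3′ ends, and both had clusters near those ends. In replicate 1 H2AC20 was enriched at 149887074 to 149887124, with 123 IP reads over 3 input reads and a log2 fold of 3.62 (interval 2.04 to 5.92). The overlapping cluster of replicate 2 (149887108 to 149887116) had 13 over 8 reads and a log2 fold of 1.55 (interval 0.17 to 3.03), below the threshold. Closer to the 3′ end, replicate 1 had 1.87 (73 over 6 reads) and replicate 2 had 2.35 (31 over 11 reads) and 1.98 (24 over 11 reads). Thus each of the 5 H2AC20 clusters had a fold above 0 in its replicate, and 1 of them passed the threshold. Beyond the H2AC20 end, on its strand, replicate 1 also had an enriched cluster at 149887891 to 149887976 with 148 IP reads over 3 input reads and a log2 fold of 3.89 (interval 2.32 to 6.18). It overlapped the start of H2AC21 in antisense and is the antisense cluster counted above. Its midpoint was 522 bases past the H2AC20 end, and replicate 2 had no cluster there. The third gene of the group, H2BC21, starts 235 bases from the start of H2AC20 on the other strand. It had 0 enriched clusters among 8 in replicate 1 (log2 −0.40 to 1.94) and 0 among 4 in replicate 2 (−0.81 to 2.44).

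The other reproducible peaks were 4 adjoining ones in the span of H4C15, on the minus strand between 149850111 and 149850323. From the highest coordinate downwards, their log2 folds were 6.45, 5.75, 4.54 and 3.47. Replicate 1 had 4 clusters with the same bounds, at 6.41 (283 over 1 reads, interval 3.92 to 11.7), 4.66 (253 over 3 reads), 3.47 (184 over 5 reads) and 4.12 (232 over 4 reads). Replicate 2 had a single enriched cluster across most of the stretch, 149850158 to 149850318, at 5.22 (103 over 5 reads, interval 3.95 to 6.87). The low-coordinate end of the site was covered in replicate 2 by a cluster from 149850099 to 149850157 that was not enriched, at 2.18 (20 over 8 reads, interval 0.93 to 3.57). It overlapped the replicate 1 cluster with 4.12, so enrichment in both replicates was found in the rest of the site. The site was flanked on the same strand by clusters of lower fold. In replicate 1 the 5 clusters between 149849473 and 149850009 had 1.74, 2.51, 2.14, 2.50 and 2.45, and in replicate 2 the clusters starting at 149849470 and 149849914 had 2.54 and 1.99. In replicate 1 these folds were below the lowest of the site, 3.47. In replicate 2 they lay around that of the low end, 2.18, and below that of the enriched cluster.

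This site is not shown to belong to histone H4 RNA. The RefSeq span of H4C15 is 16753 bases (149844488 to 149861240), and the top peak lay 10940 bases from its start. The span also holds H2AC19 and H3C15, on the other strand. The pseudogene H2BC20P, annotated as transcribed, held the midpoints of 3 of the 4 peaks, and H2AC19 began 738 bases from the site. H4C15 and H4C14 had identical promoter windows (300 of 300 bases), so reads near their starts could belong to either copy. On its strand, no cluster of either replicate lay nearer to the start of H4C15 than this site.

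**Figure D1:**
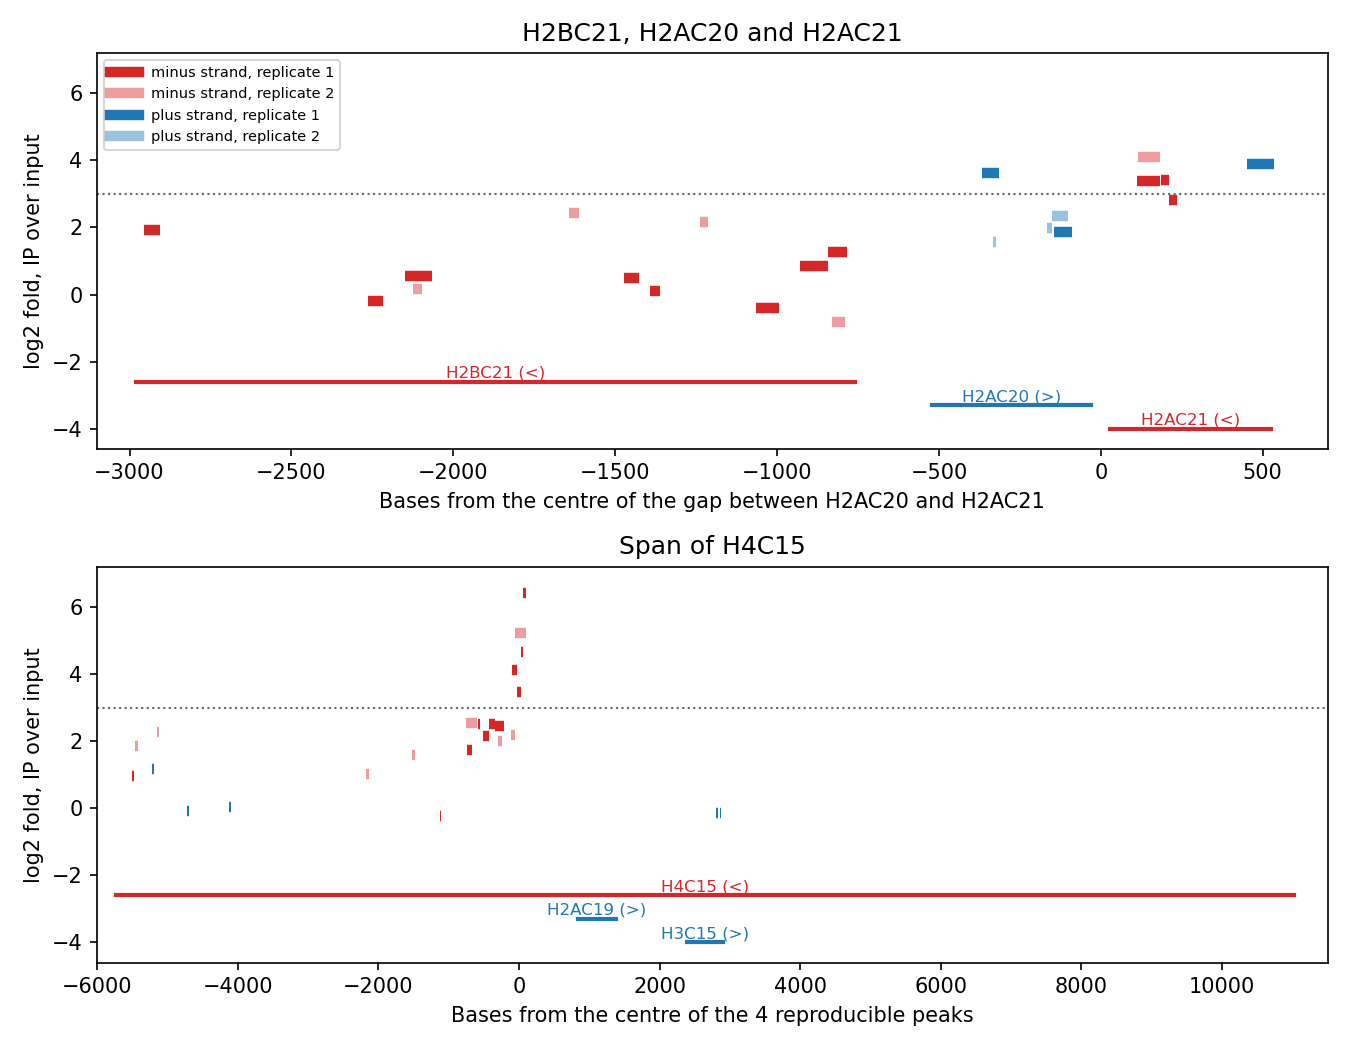
Clusters of replicate 1 (dark) and replicate 2 (pale) around H2BC21, H2AC20 and H2AC21 (top) and along the H4C15 span (bottom), each bar drawn from a cluster's first to last base at its log2 fold of IP over input; red is the minus strand and blue the plus strand, lines below are gene spans with their direction, and the dotted line is the threshold of 3. Enriched clusters lay toward the 3′ end of H2AC21, in the body of H2AC20 and across the start of H2AC21 in antisense. For H4C15 they lay in 1 stretch of 213 bases far from the gene's start.

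H4C11 had the most IP reads of any enriched histone cluster, but in replicate 1 alone. Its cluster on chromosome 6 (27824433 to 27824479, plus strand) had 457 IP reads over 6 input reads, a log2 fold of 4.52 (interval 3.38 to 5.97) and a −log10 p of 27.8. The midpoint was 24 bases before the annotated 3′ end. H4C12, whose promoter window matches that of H4C11 at 295 of 300 bases, had a cluster at the same place, 26 bases before its end, with 74 over 4 reads and a log2 fold of 2.48 (interval 1.06 to 4.39). Since the 2 genes are close copies, their reads may be divided between them, and the values are uncertain to that extent. H4C8 also had a cluster 26 bases from its end, at 1.03 (34 over 5 reads, interval −0.33 to 2.74). None of these 3 had a cluster there in replicate 2.

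H2BC14 had 2 adjoining enriched clusters at its start in replicate 1, each with 1 input read. The first, chr6:27815032-27815054 on the plus strand, covers bases 11 to 33 of the gene and lies whole in the RefSeq promoter window, so its sequence on GRCh38.p14 can be shown, with an ATG in capitals.
H2BC14 cluster: ttgttttccaccATGcctgaacc
It had 38 IP reads and a log2 fold of 3.51 (interval 0.95 to 8.85), and the second (27815055 to 27815098) had 47 IP reads and 3.82 (interval 1.27 to 9.15). Another cluster near the 3′ end had 0.85, and replicate 2 had 0 clusters in H2BC14. With 1 input read the intervals were wide, and the lower bounds were below the threshold of 3.

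Over all members the median log2 fold was 0.31 in replicate 1, with 92 of 149 clusters above 0, and 0.59 in replicate 2, with 32 of 52 above 0. Of all clusters in the data set, 53.0% were above 0 in replicate 1 and 90.3% in replicate 2. Compact members had medians of 0.42 and 0.08, and the other compact coding genes 0.29 (86 clusters) and 0.85 (15 clusters). Medians differed by histone family, though the difference was not tested. H4 genes had the highest median in both replicates, and so did the compact H4 genes among compact members. H4 was the family whose replicate 2 clusters all had folds above 0 (15 of 15), near the 90.3% of all clusters. H4C15 held 17 of the 29 H4 clusters in replicate 1 and 8 of the 15 in replicate 2, and its reproducible site is not shown to belong to H4 RNA. The 12 clusters of compact H4 genes in replicate 1 had a median log2 fold of 1.60 (−0.49 to 4.52, 11 above 0), and the 7 of replicate 2 had a median of 0.59 (0.27 to 2.85, 7 above 0). H4C5 had 1.85 (72 over 6 reads) in replicate 1 and 1.37 (10 over 7 reads) in replicate 2, H4C4 had 2.11 against 0.59 in each of 2 clusters, and H4C1 had 2.07 against 0.59. In replicate 2 the values of 0.59 rest on 5 IP and 6 input reads, with an interval of −1.46 to 2.57. The median of all 534161 clusters was 0.07 in replicate 1 and that of all 155848 clusters 1.85 in replicate 2, so compact H4 genes were above the general median in replicate 1 and below it in replicate 2.

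H2A genes came next. The 34 clusters of H2A genes in replicate 1 had a median of 0.57 (−0.62 to 3.89, 31 above 0) and the 14 of replicate 2 a median of 0.33 (−1.58 to 4.11, 9 above 0). Besides H2AC20 and H2AC21, H2AC13 stood high in both, with 2.89 (123 over 5 reads, interval 1.62 to 4.53) and 2.02 (18 over 8 reads, interval 0.75 to 3.43) in overlapping clusters near its 3′ end. H2AC13 and H2AC14 had 252 of 300 promoter bases in common, and H2AC14 had no cluster. H2AC11 was representative of the low ones, with 0.42 and 0.55 in replicate 1 and 0.01, −0.73 and −1.58 in replicate 2. H2AC7, whose 4 clusters also count for H3C4 because the spans overlap, had 0.09 to 2.17 in replicate 1 and −1.37 and 0.59 in replicate 2. H2AC17 had a median of 0.60 over 4 clusters in replicate 1 and 1 cluster at −0.73 in replicate 2.

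H2B and H3 genes lay lower. The 20 clusters of compact H2B genes in replicate 1 had a median of −0.25 (−1.15 to 3.82, 7 above 0), and all 5 of replicate 2 were below 0 (−1.08 to −0.73). Among the long H2B spans, H2BC4 had a median of −0.39 over 10 clusters in replicate 1 and 0.32 over 2 in replicate 2. H2BC5 had −0.15 over 10 and 1.81 over 4, and H2BC18 had −0.55 over 14 clusters in replicate 1 and none in replicate 2. H2BC12 had −0.58, 0.65 and 0.73 in replicate 1 and −2.29, −1.30 and 2.85 in replicate 2, the highest in each being a plus-strand cluster that also lies in H4C9. In the long spans of all families pooled, clusters within the first 600 bases had a median of −0.09 in replicate 1 (22 clusters) and −0.81 in replicate 2 (9 clusters). Those further in had 0.19 (50 clusters) and 2.18 (15 clusters). H4C15 held 17 of these 50 and 8 of these 15, so the values further in are not those of H2B genes alone. The compact H3 genes had 8 clusters in replicate 1 with a median of −0.28, of which 1 was above 0 (H3C10, 0.37), and 2 in replicate 2, H3C2 at −0.73 and H3C10 at 1.22. H3C4, with 10 and 3 clusters, had medians of 0.26 and −1.22.

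H1 genes lay above 0 in replicate 1 and below it in replicate 2. Clusters of 5 H1 genes in replicate 1 had a median of 0.47 (−1.73 to 1.27, 10 of 11 above 0), and the 3 clusters in replicate 2 were all below 0, from −1.65 to −1.08. H1-2, with 2 deep clusters, had 0.44 (405 over 90 reads, interval 0.10 to 0.78) and 0.47 (308 over 67 reads, interval 0.08 to 0.87) in replicate 1. The overlapping clusters of replicate 2 had −1.08 and −1.32. H1-4 had 0.78 (378 over 66 reads, interval 0.40 to 1.18) and 1.02 in replicate 1 and −1.65 in replicate 2. A cluster below 0 has a deposited −log10 p of 0, so its reads are known only as a ratio in lowest terms, which gives the fewest reads possible and hence the widest interval. With the fewest reads, 22 IP over 125 input, the H1-4 value of −1.65 had an interval of −2.38 to −0.99. The H1-2 values had intervals of −1.97 to −0.26 (16 over 61 reads) and −2.12 to −0.59 (19 over 86 reads). All 3 lay below 0 and apart from the intervals of the paired replicate 1 clusters.

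**Figure D2:**
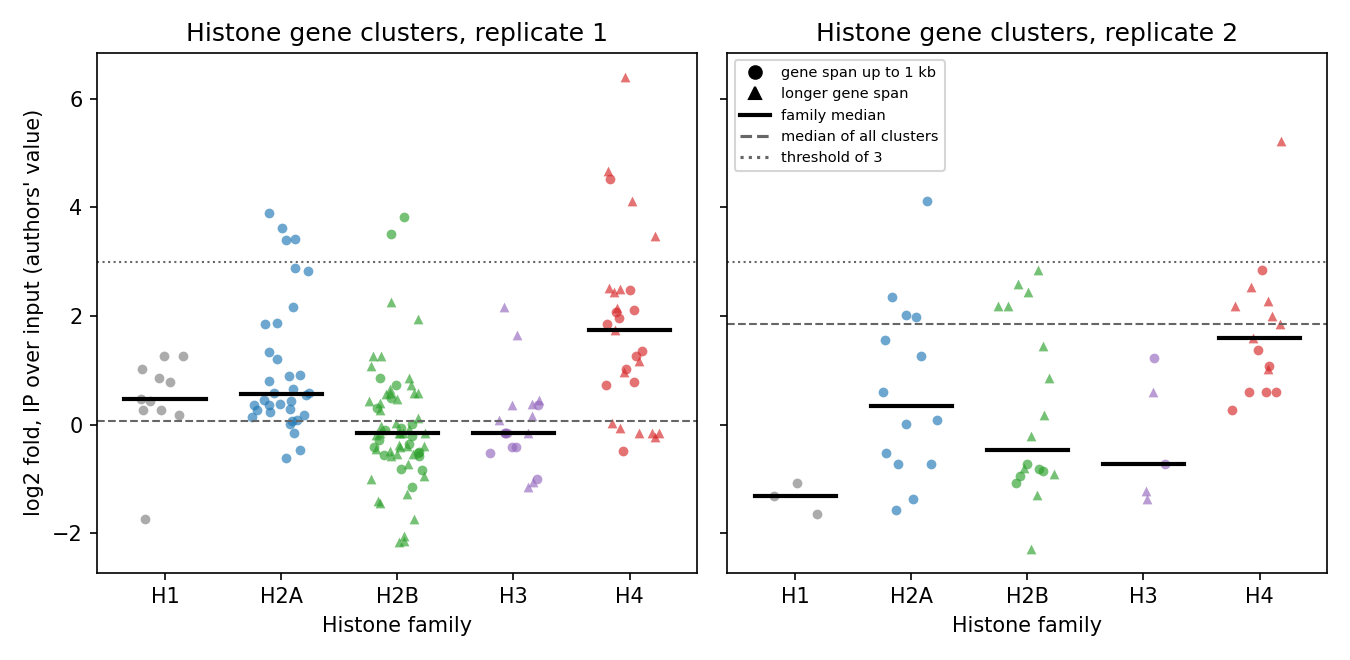
Log2 fold of IP over input for each cluster of the 69 histone genes by family, in replicate 1 (left) and replicate 2 (right); circles are genes with spans up to 1 kb, triangles longer spans, black bars family medians, the dashed line the median of all clusters of that replicate (0.07 and 1.85) and the dotted line the threshold of 3. H4 clusters have the highest median in both panels, and the 3 H1 clusters of replicate 2 lie between −1.65 and −1.08. The H4C15 span held 17 of the 29 H4 clusters in replicate 1 and 8 of the 15 in replicate 2. Compact H4 genes alone had medians of 1.60 and 0.59.

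The compact genes of chromosomes 6 and 1 had close medians in replicate 1 and medians further apart in replicate 2, which was not tested. Over all members the medians were 0.27 (97 clusters) and 0.58 (52 clusters) in replicate 1, and −0.52 (35) and 1.99 (17) in replicate 2. In replicate 1, 3 of the 97 and 8 of the 52 were enriched, 4 of these 8 in the H4C15 span, against 1.39% of all clusters. The compact members on chromosome 6 had medians of 0.42 over 69 clusters in replicate 1 and −0.63 over 26 in replicate 2. Those on chromosome 1 had 0.40 over 16 and 1.98 over 5. The 5 came from 3 genes, and 4 of them from H2AC20 and H2AC21.

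Clusters that overlapped between replicates were then compared with each other. There were 36 pairs on the same strand in 22 members (a cluster in overlapping spans counted once), matched by best mutual overlap of at least 1 base. The fold was lower in replicate 2 in 27 of the 36, with a median difference, replicate 2 minus replicate 1, of −0.65 on the log2 scale. Over all 87894 pairs of the data set the median difference was 1.36, with 70964 higher in replicate 2. The input side of the read ratio in lowest terms had medians of 5.5 and 8 in histone pairs, against 2 and 2 over all pairs. That side is the fewest input reads possible and can understate them. In an H1-2 cluster of replicate 1, for example, 405 over 90 reads reduce to 9 over 2. Among pairs with at least 5 on that side in both replicates, the median difference was −0.56 in 18 histone pairs and 0.72 in all 14549 pairs. With at least 10 it was −1.71 in 9 histone pairs and 0.18 in 5159. The direction for histone pairs was therefore the same with and without these minimums, which were chosen after seeing the data. Pairs of 1 gene share its RNA and are not independent.

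With each pair counted in every family to which it is sense, so that 2 pairs in the shared span of H2AC7 and H3C4 count for both, the replicate 2 value was lower in 3 of 3 H1 pairs (median difference −1.79), 7 of 10 H2A pairs (−1.01), 9 of 12 H2B pairs (−0.53), 2 of 3 H3 pairs (−0.07) and 7 of 10 H4 pairs (−0.47). Pairs higher in replicate 2 included H2AC21 (0.72 higher), H2BC5 (2.16 higher, 3 input reads in replicate 2) and 1 of the H4C15 pairs (1.75 higher). Intervals from recovered reads in both replicates existed for 16 pairs, all with folds above 0 in both, and overlapped in all 16. For the other 20, which include every pair that fell below 0 in either replicate, the fewest reads were used where reads were not recovered. In 4 of these the widest intervals lay apart, lower in replicate 2 each time, and 0 lay apart in the other direction. The 4 were the 3 H1 pairs, of H1-2 and H1-4, and a pair at the start of H2BC12, with 0.65 (198 over 38 reads, interval 0.14 to 1.19) in replicate 1 and −1.30 (at least 13 over 58 reads, interval −2.30 to −0.42) in replicate 2. The remaining 16 overlapped, which with the fewest reads does not show that they were alike. Across the 28 members with clusters in both replicates, gene medians were lower in replicate 2 in 20. All 7 such H4 genes were above 0 in both replicates, where 53.0% and 90.3% of all clusters were in replicates 1 and 2.

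**Figure D3:**
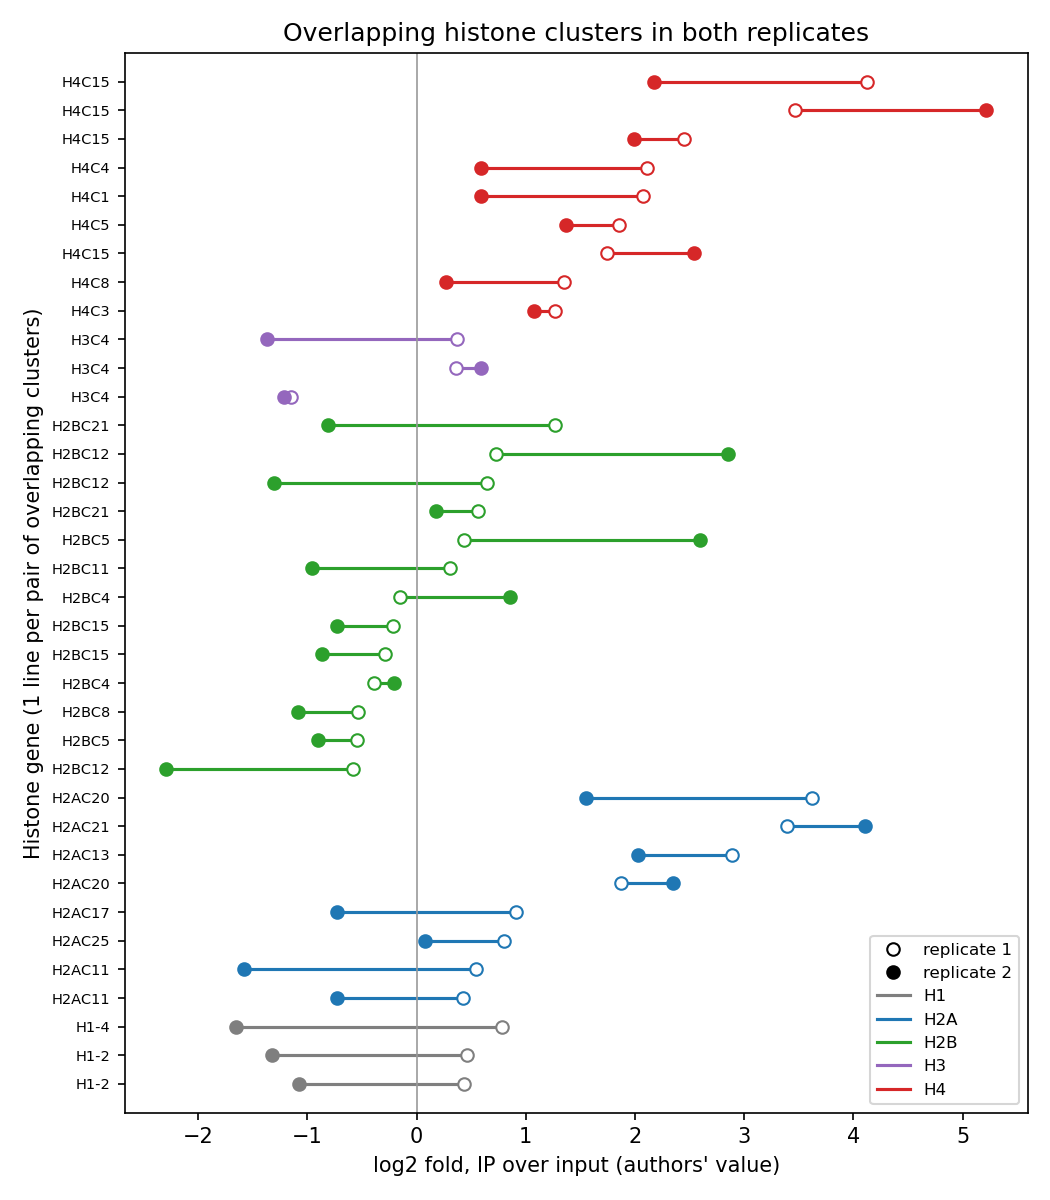
Log2 fold of IP over input for the 36 pairs of overlapping histone clusters, replicate 1 as open and replicate 2 as filled circles, 1 line per pair, coloured by the family of the gene named; the pair named H2BC12 with folds of 0.73 and 2.85 is sense to H4C9, and 2 named H3C4 also lie in H2AC7. In 27 pairs the filled circle lies to the left of the open one, and every H4 pair lies to the right of 0 in both replicates. The H4 pairs include those of the H4C15 span, which are not shown to belong to H4 RNA.

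The order of folds along the gene was not the same in the 2 replicates. Sense clusters of compact members were divided by their midpoint into 5′, middle and 3′ parts of equal length. In replicate 1 the medians were 0.75 (30 clusters), 0.04 (26) and 0.27 (23), with 2 enriched clusters in each. In replicate 2 they were −0.73 (10 clusters), 0.33 (8) and 0.35 (10), with the 1 enriched cluster, of H2AC21, in the 3′ part. The 5′ part thus had the highest median in replicate 1 and the lowest in replicate 2. The genes in each part differ, and 2 of the 10 clusters in the 5′ part in replicate 2 were of H1-2 and H1-4.

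**Figure D4:**
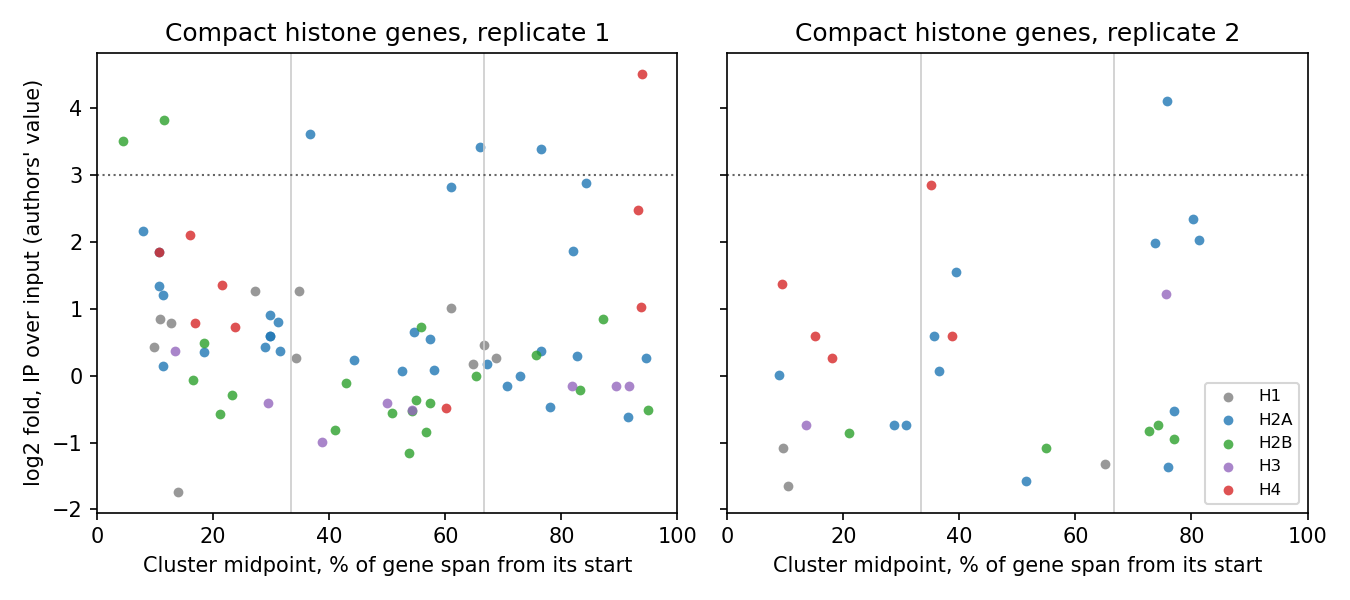
Log2 fold of IP over input of sense clusters in compact histone genes against the cluster midpoint as a percentage of the gene span from its start, for replicate 1 (left) and replicate 2 (right), coloured by family; grey lines divide the span into 3 equal parts and the dotted line is the threshold of 3. The enriched clusters of replicate 1 are spread over all 3 parts, 2 in each.

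Genes around histone supply were compared from lists that were drawn up with earlier results of these data known. Most replication-independent histone genes make variants outside DNA replication and have polyadenylated messages, which was not checked for each gene listed. Of the 20 genes listed as such, 11 had a cluster in replicate 1 and 8 in replicate 2. In each replicate 2 had an enriched one, where 15.7% and 43.2% of protein-coding genes with a cluster did. CENPA, the centromeric H3 variant, was enriched in both (highest log2 fold 4.59 and 4.02), and 0 of the 20 had a reproducible peak. The median fold over their clusters was 0.08 in replicate 1 and 0.85 in replicate 2, against 0.31 and 0.59 for the replication-dependent genes. Neither type of histone gene reached the replicate 2 median of all clusters.

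The list of factors for histone gene transcription and histone message processing had medians close to those of all clusters. All of its 27 genes had a cluster in replicate 1 and 24 had one in replicate 2. Of these, 7 were enriched in replicate 1 and 19 in replicate 2, 6 of them in both. The shares of protein-coding genes with a cluster were 15.7%, 43.2% and 16.2%. The list had medians over clusters of 0.07 and 1.97. SYMPK, the scaffold of the cleavage complex, held 4 reproducible peaks up to 6.30, and GON4L held 1 at 4.51. WDR33, a polyadenylation factor, reached 3.69 and 5.25 in the 2 replicates, CRAMP1 3.49 and 4.55, SRRT, a partner of the cap-binding complex, 3.82 and 4.66, and UPF1, a helicase of message decay, 3.82 and 4.10. SLBP had 0 enriched among 39 clusters in replicate 1 and 4 among 21 in replicate 2, and NPAT 0 among 94 and 5 among 37. The U7 small nuclear RNA gene RNU7-1, chosen after its values were seen, had 2 enriched clusters of 2 in replicate 1 (highest 3.88) and 1 cluster at 0.85 in replicate 2. RNU7-1 is 1 of the 7 genes of the list enriched in replicate 1, and it is not protein-coding, unlike the genes behind the 15.7%. That count of 7 therefore includes a gene chosen with its values known. All 15 histone chaperones and S phase partners had a cluster in replicate 1, and 14 had one in replicate 2. Of these, 5 were enriched in replicate 1, 7 in replicate 2 and 5 in both, beside the same background shares. NASP, a chaperone of H1 and H3, held 6 reproducible peaks up to 5.40, RBBP4 held 4 up to 6.16 and HIRA, the H3.3 chaperone, held 2 up to 5.30. HAT1, a histone acetyltransferase, held 1 at 7.23, and CHAF1A, a subunit of the replication-coupled chaperone, 3.48 and 4.22. These genes have longer spans and more clusters than the histone genes, so their counts of enriched genes are not on the same footing. Nor were their spans matched to those of the protein-coding genes behind the background shares.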

How the data were processed

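RNA bound by ADAR was measured by eCLIP in K562 cells in 2 IP and 2 input libraries. The submitters' processing notes list the tools cutadapt 1.9 and STAR 2.4.0i and the builds hg19, GRCh38 and hg38; the peak caller was not given in the sources used here. Both the −log10 p-values and the log2 folds in the 3 deposited lists are the authors' values per cluster, IP over its own input, with −log10 p limited to 400. How the authors merged replicates into the reproducible list was not stated. Clusters were assigned to RefSeq GRCh38.p14 gene spans by midpoint, on either strand, with pandas 2.3.3; coordinates count from 1. Reads were recovered by writing each fold as a ratio of whole numbers (tolerance 1e-06, input side up to 500, the commonest fold taken as 3 IP reads over 1 input read) and keeping the multiple whose two-sided binomial or continuity-corrected chi-square −log10 p matched the deposited one within 0.001, if only 1 did. Among 1000 sampled clusters with p above 0 this gave reads for 95.7% in replicate 1 and 99.1% in replicate 2. It was tested on simulated data. Each replicate gives 1 value per cluster, so no test across samples was made.

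The members and lists were chosen with earlier results of these data known. Members named are those with a reproducible or enriched cluster, the 10 with the most clusters, and the member with the most clusters in each family; from other lists, up to 8 with a reproducible peak or enrichment in both replicates. Other genes named as illustrations, the 6 promoter motifs (3 more were searched and not kept), the read recovery, the span limits of 1 kb and 600 bases, the input minimums, the widest intervals and the flanks were chosen after values were seen. Alternatives covered thresholds, assignment, long or overlapping spans, pairing and single replicates.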

Additional observations from a re-analysis of the deposited data

How the results depend on the processing

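Of 70 alternative values for 9 results, 42 kept their value, 28 moved and 0 reversed. Kept means within 1.5 times for counts and otherwise within 0.20, the standard deviation of the 2 replicate medians. Only the medians and the median difference could reverse, since a count has no sign. At log2 fold 2, genes enriched were 4 in replicate 2 and 4 in both, and enriched clusters were 17 and 6 in replicates 1 and 2. At log2 fold 4, genes enriched were 2 in replicate 1 and 1 in both, and clusters 4 in replicate 1. Without spans over 5 kb, which removes H4C15, genes were 1 in replicate 2, 1 in both and 1 with a reproducible peak, clusters were 7 and 1, the replicate 2 median was 0.13 and the pair difference −0.97. Keeping only spans of at most 1 kb, added after seeing the data, gave the same counts, with 0.077 and −1.08. Leaving out clusters in another gene span gave 1 gene in replicate 2, 1 in both, 1 cluster in replicate 2, a median of 0.27 and a difference of −0.86; the enriched replicate 2 cluster of H4C15 lies in H2BC20P. With either replicate alone, the genes enriched in both and those with a reproducible peak are replaced by the enriched genes of the other replicate, 2 to 5. Where neither a threshold nor fewer genes sets the change, the cause was not tested. No paired analysis was possible because the results come from no test, and every fold is itself an IP to input ratio within 1 replicate. Depth limits clusters with 1 or 2 input reads most.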

Other observations

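Around the 56 compact members of known strand, clusters on the gene's strand and outside every annotated gene span lay past the 3′ end and not before the start. Within 1000 bases there were 27 downstream of 9 genes in replicate 1 and 12 downstream of 6 genes in replicate 2, and 0 upstream in either. H2AC6 had 8 in replicate 1 (log2 fold −1.67 to 1.06) and 6 in replicate 2 (0.95 to 1.52), and H2BC11 had 6 (−1.70 to 1.49) and 2 (0.53 and 1.75). None was enriched, where 1.39% and 12.8% of all clusters were. The medians were −0.27 in replicate 1 and 1.10 in replicate 2, against 0.07 and 1.85 over all clusters. The flanking clusters of H2AC6 had a higher median in replicate 2 (1.33 against −0.32), the other way from most overlapping pairs inside the histone genes. That is the direction of most pairs of the whole data set, 70964 of 87894. H2AC6 itself had 0 clusters inside the gene in replicate 2 to set beside them. Whether they belong to the histone transcripts was not tested.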
